A study of Homo sapiens with 4 samples.

Results

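The proteasome genes were examined in RNA-seq of lung cancer cells in which the circular RNA circZFR was silenced. They were chosen by name alone: rows of type mRNA whose symbol begins with PSMA to PSMG followed by a number, together with POMP, ADRM1 and NFE2L1. The rule found 52 of the 19784 mRNA rows, among 40205 rows in all. Of these, 2 were listed at 0 in all 4 libraries: PSMA8, the alpha subunit of testis, and PSMB11, the beta subunit of the thymus. A count of 0 allows up to 3 reads, or 0.234 to 0.272 CPM (reads relative to the mapped reads of a library). The other 50 genes had an RPKM of at least 1 in every library and were all tested. PSMC3IP matches the rule by its symbol but encodes a recombination factor and no part of the proteasome. It is listed on its own.

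The proteasome degrades proteins tagged with ubiquitin. Its 20S core is a barrel of alpha and beta rings, in which PSMB6, PSMB7 and PSMB5 carry the caspase-like, trypsin-like and chymotrypsin-like activities. The 19S particle caps the barrel: its base holds a ring of ATPases (PSMC1 to PSMC6) that unfold substrates, and its lid holds the subunit that removes ubiquitin, PSMD14. Interferon replaces the catalytic beta subunits by PSMB9, PSMB10 and PSMB8, which form the immunoproteasome, and other caps (PSME1 with PSME2, PSME3, PSME4) open the barrel without ubiquitin. Tumor cells depend on the proteasome to clear damaged and short-lived regulatory proteins, and the transcription factor NFE2L1 raises the genes of its subunits together when its activity falls.

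RNA was sequenced from 2 libraries of cells given a scrambled negative control (NC 1 and NC 2) and 2 libraries of cells given siRNA against circZFR (si-circZFR 1 and si-circZFR 2), each 24 h after transfection. The cells grew in RPMI with fetal calf serum, and the groups carried no other agent. The study design names A549, a human lung adenocarcinoma line, whereas the labels of the samples give H1299, which is also a lung cancer line. AKR1B10, a marker of A549, had 1297 to 1673 scaled RPKM here. Silencing was transient and by siRNA against the junction of the circle, and the gene values do not separate the circle from the linear transcript of its host gene. ZFR, the host gene, was at 26.0 and 31.8 scaled RPKM in the NC libraries and at 5.26 and 4.63 in the si-circZFR libraries, a fall of 2.33 on the log2 scale (FDR = 0.0386 by limma). It had 1437 and 1740 recovered reads in NC and 284 and 267 in si-circZFR. By RT-PCR, in contrast, the article reports that ZFR did not change detectably with the siRNA in A549 cells. Whether the differences below follow the circle or ZFR itself was not tested.

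The authors deposited RPKM values (reads on a gene, divided by its length and by the mapped reads of the library). Library totals recovered from them were 11040050 to 12816868 reads. The values were scaled between libraries, with factors of 0.906 for NC 2 to 1.11 for si-circZFR 2, and a log2FC below is si-circZFR against NC on the log2(scaled RPKM + 1) scale. A gene was called at FDR under 0.05 (Benjamini-Hochberg over 13885 genes tested) and an absolute log2FC over 1, by limma. The labels do not say whether replicates came from separate cultures, so p-values measure only the spread between these libraries. Of 12 markers of A549 and lung epithelial carcinoma, 8 were above both NC libraries in both si-circZFR libraries and none was called. Over all genes tested, 28.3% were apart on that side. The summed level of the 12 was 5908 and 7823 in NC and 7793 and 8022 in si-circZFR. Of the 8, EPCAM rested on 4, 4, 18 and 28 recovered reads, and FGA, FGB and FGG were also low. The abundant markers AKR1B10, AKR1C1, AKR1C2 and ALDH3A1 overlapped between groups. Among 6 markers of blood, fibroblasts and endothelium, PTPRC, CD3E and COL1A2 were at 0 in every library, and the sum, nearly all of it CD68, was 80.2 and 81.5 in NC and 79.6 and 57.1 in si-circZFR.

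No proteasome gene was called, against 0.0576% of all genes tested (8 of 13885). The genes of the proteasome nevertheless leaned to lower values: 39 of 50 (78.0%) had a negative log2FC, against 49.1% of all genes and 46.7% of mRNA genes tested. Their median log2FC was -0.17, beside 0.0084 over all genes, and they ran from -1.12 for PSME3 to 0.53 for PSMC3. Both si-circZFR libraries lay below both NC libraries for 22 of the 50 and above both for 4, and the groups overlapped for 24. Over all genes tested, 27.9% were apart on the lower side and 28.3% on the higher side. At an unadjusted p under 0.05, 6 proteasome genes were lower and 2 higher, against 11.5% and 10.2% of all genes. By limma-voom, the other test run, 1 proteasome gene was called, against 2.49% of genes, and 11 of the 50 had an unadjusted p under 0.05, against 23.6%. In bulk RNA, fewer cells that express a gene and less of its RNA in each cell cannot be told apart.

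**Figure D1:**
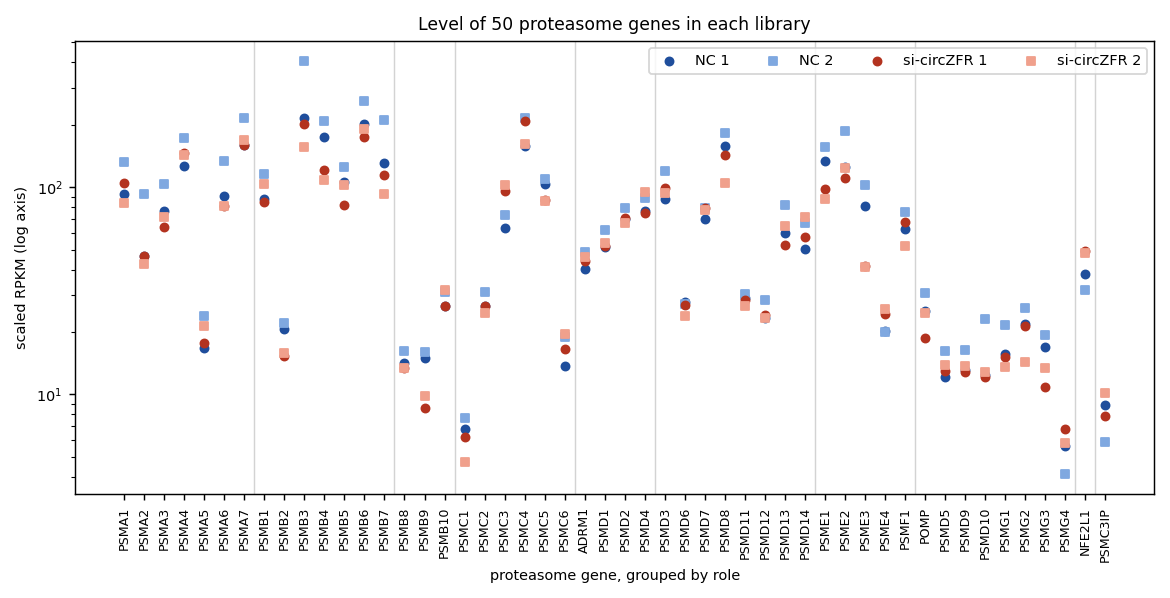
Scaled RPKM (log axis) of the 50 proteasome genes above 0 in each of the 4 libraries, in order of role, with grey lines between roles. The light blue squares of NC 2 stand highest for most genes of the core, and the red points of the si-circZFR libraries lie mostly near NC 1.

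For the proteasome genes, NC 2 stood apart from the other 3 libraries. The median difference of the 50 genes was 0.27 for NC 2 minus NC 1, and only 0.011 for the 2 si-circZFR libraries (2 minus 1). Against NC 1, the medians were -0.030 for si-circZFR 1 and -0.037 for si-circZFR 2, whereas against NC 2 they were -0.32 and -0.33. Over all mRNA genes tested, the median difference between NC 2 and NC 1 was -0.0017, a value that the scaling between libraries keeps near 0. Among genes of similar length, NC 2 was also above NC 1, as given below. The summed level of all 52 genes was 3314 in NC 1, 4374 in NC 2, 3167 in si-circZFR 1 and 3084 in si-circZFR 2 (scaled RPKM). NC 2 was also the highest library in the sum over all mRNA genes tested, at 346008 against 291810 in NC 1, 278575 in si-circZFR 1 and 276020 in si-circZFR 2. Without NC replicate 1 the median log2FC of the 50 genes was -0.33 with 45 of them lower, and without NC replicate 2 it was -0.048 with 27 lower. The size of the shift thus moved with NC 2.

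**Figure D2:**
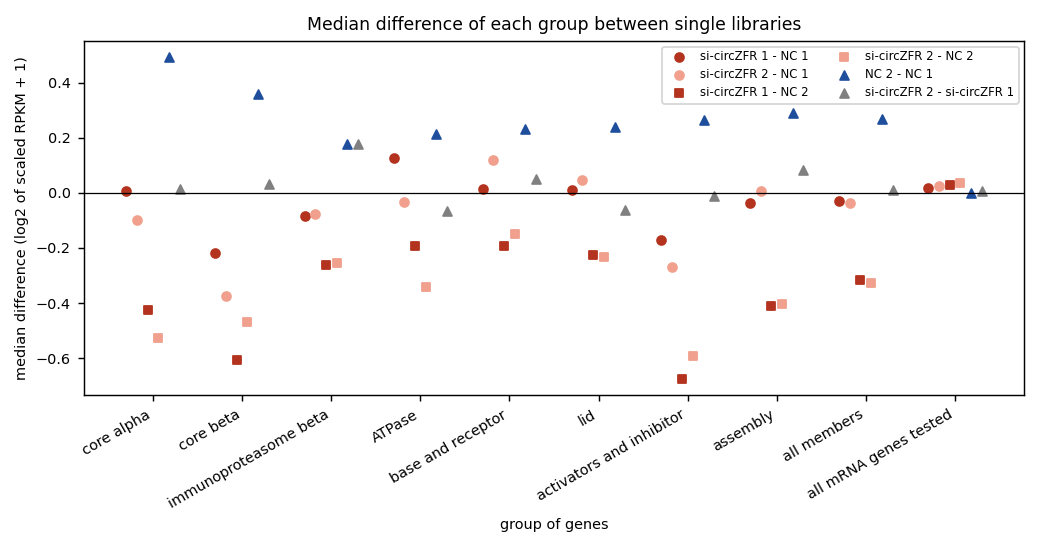
Median difference on the log2(scaled RPKM + 1) scale between single libraries, for each group of proteasome genes, for all 50 and for all mRNA genes tested. Squares (si-circZFR against NC 2) lie well below circles (si-circZFR against NC 1), blue triangles (NC 2 against NC 1) lie above 0 in every group of proteasome genes, and the 6 medians of all mRNA genes lie near 0. The scaling between libraries keeps the medians of all mRNA genes near 0.

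Gene length moved with the same comparison. Over all genes tested, the median log2FC was -0.30 in the decile of shortest genes and 0.16 in the decile of longest genes. NC 2 was above NC 1 by a median of 0.12 in the decile of shortest genes (22 to 735 bases). The median was 0.25 over genes of 737 to 1261 bases and 0.16 over genes of 1262 to 1740 bases. In the decile of longest genes this median was -0.26. The proteasome genes were short, with a median of 1577 bases against 2677 for all genes tested. These lengths are the smallest that fit the RPKM values, and single ones may be too low. With a smooth correction for length in each library, their median log2FC was -0.15, with 35 of 50 lower, against -0.019 for all genes.

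**Figure D3:**
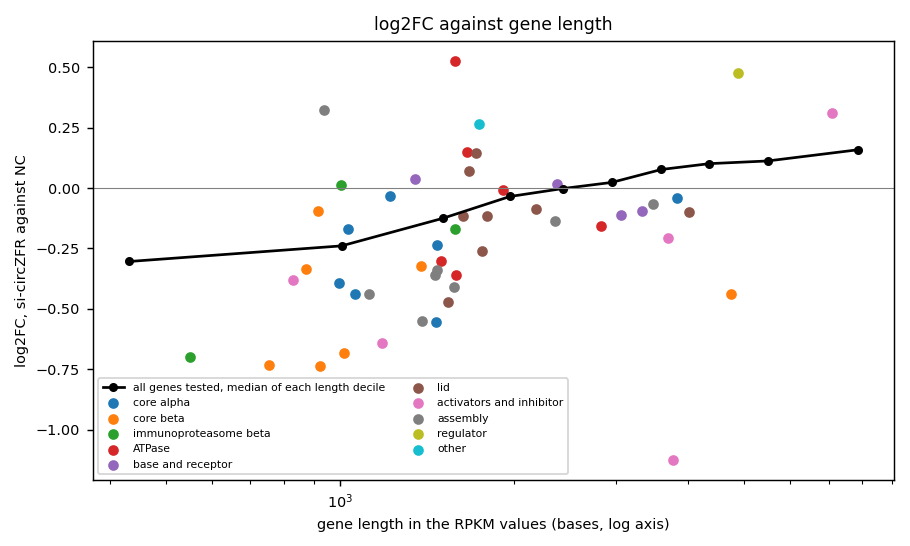
The log2FC of each proteasome gene against its length in the RPKM values (log axis), colored by role. The black line joins the median log2FC of all genes tested in 10 classes of length and runs from -0.30 to 0.16. Most beta subunits, PSMB9, PSME1 and PSME3 lie below it, and PSMC3 and NFE2L1 lie above it.

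None of the 7 beta subunits of the core was called, but all had a negative log2FC, with a median of -0.44. In 6 of the 7, PSMB1 being the exception, the groups were apart on the lower side, as in 27.9% of all genes. Their summed level was 938 and 1347 scaled RPKM in NC and 795 and 769 in si-circZFR. With the correction for length the median was -0.40, and leaving out each library in turn gave -0.51 to -0.28.

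PSMB4, a structural beta subunit, had the lowest log2FC of the ring. It stood at 174 and 209 scaled RPKM in NC and at 120.3 and 108 in si-circZFR (replicates 1 and 2 in this order, here and below). The groups did not overlap, and the log2FC was -0.73 (limma: standard error 0.20, unadjusted p = 0.0108, FDR = 0.133). PSMB3, another structural subunit and the gene with the highest mean level in NC, had 216 and 405 in NC and 203 and 156 in si-circZFR. Its log2FC was as low as that of PSMB4, -0.73, but with a standard error of 0.35 (FDR = 0.282 by limma), and NC 2 stood far above the other 3 libraries. Without NC replicate 2 it was -0.28, and with the correction for length it was -0.40 for PSMB3 and -0.47 for PSMB4. PSMB2 varied little within groups, with 20.7 and 22.2 in NC and 15.4 and 15.8 in si-circZFR. Its log2FC was -0.44 (limma: standard error 0.15, unadjusted p = 0.0267, FDR = 0.179).

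The catalytic subunits had lower means in si-circZFR, PSMB7 by more than the others. PSMB7, the trypsin-like subunit, had 131 and 209.8 in NC and 115 and 92.5 in si-circZFR, a log2FC of -0.68 (limma: standard error 0.28, FDR = 0.231). PSMB6, the caspase-like subunit, had 203 and 259.9 in NC and 174 and 189.9 in si-circZFR (log2FC -0.33, standard error 0.22). PSMB5, the chymotrypsin-like subunit and the target of bortezomib, had 105 and 126 in NC and 82.2 and 102 in si-circZFR (log2FC -0.32, standard error 0.21). In each of the 3 both si-circZFR libraries lay below both NC libraries, but for PSMB5 the higher si-circZFR library came close to NC 1. Without NC replicate 2, the log2FC was -0.35 for PSMB7, -0.16 for PSMB6 and -0.20 for PSMB5. With the correction for length it was -0.45, -0.051 and -0.19 in the same order.

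The alpha ring, which gates the entry to the core, was less clearly separated. All 7 expressed alpha genes had a negative log2FC with a median of -0.23, but only PSMA3 and PSMA6 were apart from NC. Over all genes tested, 49.1% were negative and 27.9% were apart on the lower side. PSMA6 had 90.5 and 134 scaled RPKM in NC and 80.6 and 81.5 in si-circZFR, a log2FC of -0.44 (limma: standard error 0.23, FDR = 0.326). Without NC replicate 2 it was -0.16, and with the correction for length -0.22. The alpha genes were the group in which NC 2 stood highest over NC 1, by a median of 0.49, and without NC replicate 2 their median log2FC was 0.018. PSMA2 showed this most, with 46.6 and 92.7 in NC and 46.6 and 42.5 in si-circZFR. Its log2FC was -0.55 (limma: standard error 0.33, FDR = 0.369), and without NC replicate 1 it was -1.04 and passed the test (FDR = 0.0490 by limma), in a fit that called 4.98% of all genes.

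The immunoproteasome subunits were expressed at a small share of their constitutive partners and did not move alike. PSMB9, which takes the place of PSMB6, had 15.0 and 16.0 scaled RPKM in NC and 8.57 and 9.81 in si-circZFR. The groups were well apart, with a log2FC of -0.70 (limma: standard error 0.16, unadjusted p = 0.0047, FDR = 0.105). PSMB9 was short by the length recovered from the RPKM values (550 bases against 1017 in the GENCODE transcript) and rested on 97, 102, 54 and 66 recovered reads. Both the length and the reads may be low by a common factor, and the correction for length used this length. With the correction for length its log2FC was -0.29 (FDR = 0.318 by limma).

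PSMB8, the partner of PSMB5, had 14.2 and 16.2 in NC and 13.3 and 13.4 in si-circZFR, a log2FC of -0.17. PSMB10, the partner of PSMB7, had 26.6 and 31.2 in NC and 26.6 and 31.9 in si-circZFR, a log2FC of 0.014 with overlapping groups. As a percentage of its constitutive partner, PSMB9 was 7.43% and 6.14% in NC and 4.93% and 5.17% in si-circZFR. PSMB10 was 20.3% and 14.9% of PSMB7 in NC and 23.2% and 34.5% in si-circZFR. PSMB8 was 13.5% and 12.9% of PSMB5 in NC and 16.2% and 13.1% in si-circZFR. The ratio was thus lower for PSMB9 and higher for PSMB10 and PSMB8, in each case in both si-circZFR libraries against both NC libraries except for PSMB8, where si-circZFR 2 lay between the NC libraries. PSMB8 (chromosome 6, 32840717 to 32844679, minus strand) and PSMB9 (32844136 to 32859851, plus strand; GRCh38, GENCODE 44) overlap in the annotation. Whether the counting used strand is not given in the sources used here, so reads in the overlap cannot be assigned.

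**Figure D4:**
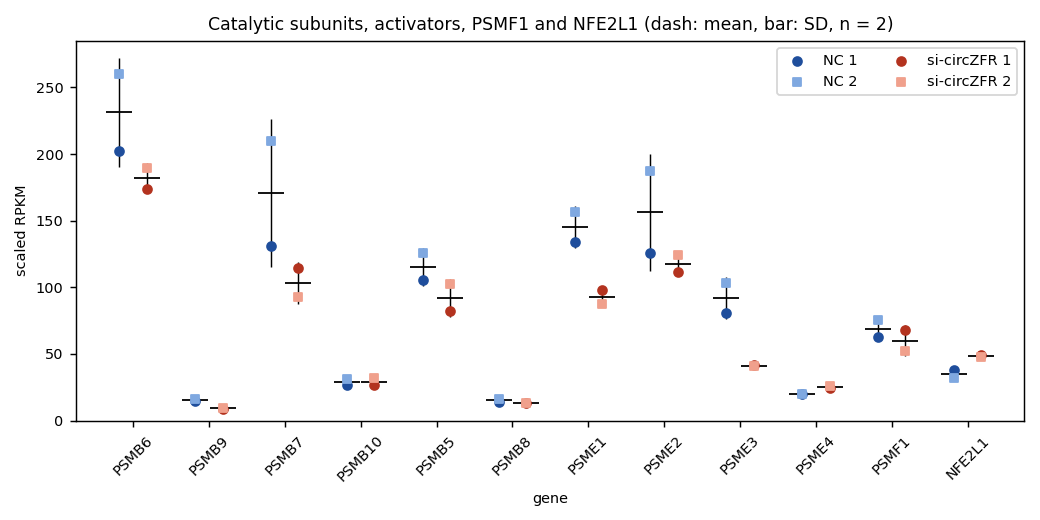
Scaled RPKM of the catalytic beta subunits beside their immunoproteasome partners, of the activators, the inhibitor PSMF1 and NFE2L1, by library, with the mean (dash) and SD (bar) of 2 libraries in each group. PSME3 and PSME1 are lower in both si-circZFR libraries than in both NC libraries, NFE2L1 is higher, and the spread of PSMB7 and PSME2 in NC comes from NC 2.

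The activators held the largest single difference. PSME3 (chromosome 17, 42824385 to 42843760, plus strand, 11 exons) encodes PA28 gamma, a nuclear activator that opens the core for degradation without ubiquitin and is known in several cancers. It had 81.0 and 102.9 scaled RPKM in NC and 41.5 and 41.2 in si-circZFR, from 3575, 4497, 1791 and 1895 reads. The means were 92.0 ± 15.5 and 41.4 ± 0.267 (SD, n = 2 each), a ratio of 0.450. The log2FC was -1.12 (standard error 0.19, unadjusted p = 0.0011), and the FDR of 0.0828 by limma lay above the threshold.

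The call on PSME3 depended on the setting. It passed with genes at an RPKM of at least 1 in all 4 libraries (FDR = 0.0372; 2.07% of genes called), above 1 CPM in at least 2 libraries (FDR = 0.0450; 1.39%), with mRNA genes only (FDR = 0.0162; 1.91%) and by limma-voom (log2FC -1.16, FDR = 0.0258; 2.49%). It also passed without NC replicate 1 (log2FC -1.29, FDR = 0.0462 by limma), but not without NC replicate 2 (log2FC -0.95, FDR = 0.179), si-circZFR replicate 1 (FDR = 0.380) or si-circZFR replicate 2 (FDR = 0.622), nor without a filter on low values (FDR = 0.242), all by limma. Under the other alternatives the FDR was between 0.0620 and 0.0936. PSME3 is long for a proteasome gene (3764 bases), and with the correction for length its log2FC was -1.21.

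PSME1 and PSME2 encode the alpha and beta chains of PA28, the cap induced by interferon that works with the immunoproteasome, and lie side by side on chromosome 14. PSME1 had 134 and 157 in NC and 97.7 and 87.3 in si-circZFR, a log2FC of -0.64 (limma: standard error 0.19, unadjusted p = 0.0152, FDR = 0.149). PSME2 had 125 and 188 in NC and 111 and 124 in si-circZFR, a log2FC of -0.38 (limma: standard error 0.25, FDR = 0.409). Without NC replicate 2 the log2FC of PSME2 was -0.094, and with the correction for length it was -0.081. Both genes were lower in both si-circZFR libraries, but by less than PSME3, so that PSME1 was at 165% and 152% of PSME3 in NC and at 235% and 212% in si-circZFR. This difference between activators was not tested.

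PSME4, which encodes the activator PA200, went the other way. It had 20.3 and 19.9 in NC and 24.5 and 25.9 in si-circZFR, and the log2FC of 0.31 did not pass (limma: standard error 0.15, unadjusted p = 0.0822, FDR = 0.285). With the correction for length it was 0.15. PSMF1, the inhibitor PI31, had 62.7 and 75.4 in NC and 68.1 and 51.9 in si-circZFR. Its groups overlapped, with a log2FC of -0.21.

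The 3′UTR of PSME3 holds the 7-mer CTGACTC, which an earlier search of these same data had picked out for its low log2FC, so the match is described here and not tested. The 7-mer lies in the 3′UTR of 3 of the 50 genes (6.00%), PSME3, PSMB2 and PSMC1, against 11.3% of 10413 mRNA genes tested with a 3′UTR (GENCODE 44). All 3 had a negative log2FC, with a median of -0.44 against -0.16 for the other members, of which most were lower too. Among the 1177 mRNA genes with the 7-mer, 658 (55.9%) had a negative log2FC, and the median was -0.047 with it and 0.041 without it. The sites are shown because these genes carry them, with the 7-mer in capitals, read 5′ to 3′ on the strand of the gene (GRCh38). The site of PSME3 is at chr17:42842451-42842479 (plus strand), that of PSMB2 at chr1:35600727-35600755 (minus strand), and those of PSMC1 at chr14:90273809-90273837 and chr14:90275331-90275359 (plus strand).
PSME3: cctgttcctctCTGACTCagccctttttg
PSMB2: gcaaacccatcCTGACTCtcagtgttttt
PSMC1, first site: caccctccctcCTGACTCgtggcacttca
PSMC1, second site: actctcagcaaCTGACTCacacggttcag
The sites of PSMC1 lie in a 3′UTR of 3022 bases, whereas the length recovered for the whole gene was 1586 bases. If that length is right, the model used for counting did not hold all of the 3′UTR.

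The ATPase ring held the highest log2FC of the 50 genes. PSMC3, which encodes the ATPase Rpt5, had 63.6 and 73.5 in NC and 96.1 and 101.9 in si-circZFR, a log2FC of 0.53 (limma: standard error 0.18, unadjusted p = 0.0248, FDR = 0.175). Its level was 44.5% higher in the mean, and the groups were apart. PSMC1 and PSMC5, which encode Rpt2 and Rpt6 of the same ring, were apart in the other direction, with log2FC of -0.36 and -0.30. PSMC5 had 103 and 109.9 in NC and 87.0 and 85.4 in si-circZFR. The remaining ATPases overlapped, and the median of the 6 was -0.082.

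Reads of PSMC1 cannot be told from those of a near-identical copy. PSMC1P1 is 99.9% identical to the transcript of PSMC1 over 1320 bases and had 399 to 550 recovered reads a library, against 127, 141, 113 and 91 for PSMC1 in the order of the libraries above. The sum of both was 56.5 and 53.9 CPM in NC and 46.1 and 44.4 in si-circZFR, a log2FC of -0.29. PSMC6 also has a listed pseudogene with many reads, PSMC6P1 (138, 187, 178 and 210 against 268, 363, 315 and 396 for PSMC6), whose identity to it was not measured here. PSMA6P1 is 97.4% identical to the transcript of PSMA6 over 741 bases, so the values of PSMA6 are uncertain as well. How the authors treated reads that fit several places is not given in the sources used here.

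The other parts of the 19S particle differed little between groups. The base and receptor genes, PSMD1, PSMD2, PSMD4 and ADRM1, all overlapped, with log2FC from -0.11 to 0.037. ADRM1, the ubiquitin receptor Rpn13, had 40.2 and 48.9 in NC and 43.8 and 45.8 in si-circZFR. Of the 8 lid genes, 6 had a negative log2FC, against 49.1% of all genes tested. In 3 (PSMD6, PSMD8 and PSMD11) the groups were apart on the lower side, as in 27.9% of all genes. The median of the lid genes was -0.11. PSMD8, a lid subunit also known as Rpn12, was the lowest, with 158 and 183 in NC and 143 and 105 in si-circZFR, a log2FC of -0.47 (limma: standard error 0.23, FDR = 0.290). Without si-circZFR replicate 2 it was -0.25. PSMD14, the deubiquitinase of the lid, had 50.2 and 67.4 in NC and 57.6 and 72.0 in si-circZFR, a log2FC of 0.14 with overlapping groups. Side by side, the 14 genes of the 20S core had a median log2FC of -0.36 with none higher, and the 18 genes of the 19S particle one of -0.098 with 6 higher. The core genes were shorter, with a median of 1047 bases against 1740. With the correction for length, PSMA4, PSMA7 and PSMB1 of the core had a positive log2FC (0.136, 0.056 and 0.173). The medians were then -0.13 (alpha), -0.40 (beta), -0.085 (ATPases), -0.079 (base) and -0.072 (lid). Without NC replicate 2 the medians of the alpha, ATPase and base genes were above 0, at 0.018, 0.082 and 0.087, and the difference between core and cap was not tested.

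**Figure D5:**
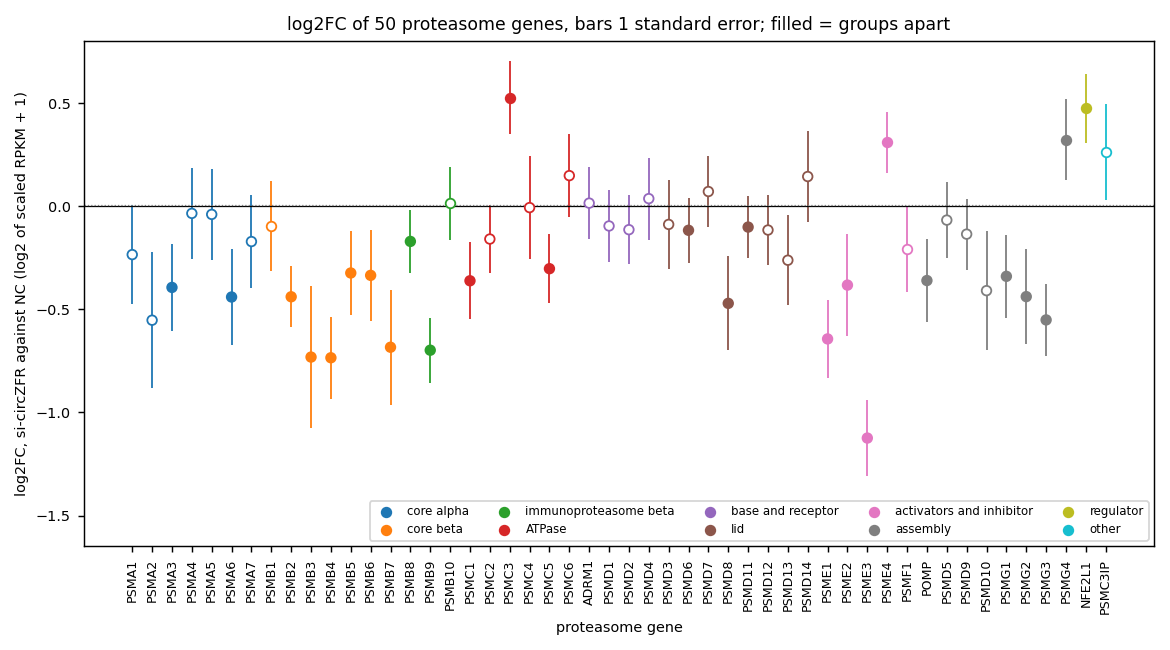
The log2FC of each of the 50 genes with 1 standard error, colored by role, filled where the groups did not overlap. All 14 core genes lie below 0, PSME3 is lowest at -1.12 and PSMC3 highest at 0.53, and the dotted line marks the median of all genes tested (0.0084).

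The assembly factors are chaperones that pair alpha subunits, mature the beta ring or join the base. Of the 8, 7 had a negative log2FC and 4 were apart on the lower side, against 49.1% and 27.9% of all genes tested. Their median log2FC was -0.35, and -0.050 without NC replicate 2. PSMG3, of the chaperone pair PSMG3 and PSMG4, had 17.0 and 19.3 in NC and 10.8 and 13.4 in si-circZFR, a log2FC of -0.55 (limma: standard error 0.18, unadjusted p = 0.0210, FDR = 0.167). Its partner PSMG4 had 5.64 and 4.13 in NC and 6.79 and 5.84 in si-circZFR (log2FC 0.32, standard error 0.20), from 45 to 73 reads a library. An antisense transcript of PSMG3, PSMG3-AS1, was higher, with 2.14 and 1.39 in NC and 3.76 and 3.59 in si-circZFR (log2FC 0.77, FDR = 0.130 by limma), and reads of such a pair cannot be told apart where strand is not known. POMP, which matures the core, had 25.2 and 30.7 in NC and 18.7 and 24.6 in si-circZFR, a log2FC of -0.36 (limma: standard error 0.20, FDR = 0.344). Without si-circZFR replicate 1 it was -0.17, and without NC replicate 2 -0.22. PSMD10, also known as gankyrin, had 12.4 and 23.1 in NC and 12.1 and 12.9 in si-circZFR. Only NC 2 stood out for it, and without NC replicate 2 its log2FC of -0.41 became 0.016.

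NFE2L1, the regulator, was not called but had a higher level, while most proteasome genes had lower ones. Whether the levels of NFE2L1 and of these genes are linked was not tested. It had 38.1 and 31.7 scaled RPKM in NC and 49.4 and 48.1 in si-circZFR, from 1795 to 2866 reads. The groups were apart, with a log2FC of 0.47 (limma: standard error 0.17, unadjusted p = 0.0321, FDR = 0.192). Without NC replicate 2 its log2FC was 0.346, and with the correction for length it was 0.349. In contrast to the subunits, NC 2 was the lowest library for NFE2L1. The protein is released from the endoplasmic reticulum by NGLY1 and DDI2, which are named for that role. The log2FC of NGLY1 was 0.0028 and that of DDI2 0.28, both with overlapping groups. PSMC3IP, the gene outside the proteasome, also overlapped, with a log2FC of 0.26.

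NFE2L1 binds antioxidant response elements. Their core, TGACNNNGC on either strand, was searched in RefSeq promoters (GRCh38.p14, 250 bases before to 50 after the start), which were matched for 46 of the 52 genes. It was found for 16 of the 46 (34.8%), against 16.1% of all 27305 genes with a promoter and 19.7% of 8580 tested mRNA genes. The median log2FC was -0.12 for the 16 genes with it and -0.19 for the 28 tested genes without it. The CCAAT box (letters CCAAT, either strand) lay in 23 of the 46 promoters, against 39.7% of all. A match is a description of the letters, and binding was not measured. A site from each of the alpha ring, the beta ring, the ATPases and the lid is shown with the core in capitals, read 5′ to 3′ on the strand named: PSMA4 at chr15:78540650-78540678 (plus), PSMB3 at chr17:38752627-38752655 (plus), PSMC5 at chr17:63827654-63827682 (minus) and PSMD12 at chr17:67366724-67366752 (minus).
PSMA4: gtgggcacgaTGACTCTGCaccgcctcct
PSMB3: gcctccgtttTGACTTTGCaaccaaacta
PSMC5: agggcggcgcTGACACAGCagatccggtc
PSMD12: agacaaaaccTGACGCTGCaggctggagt
Of these 4 genes, PSMB3 had a log2FC of -0.73, PSMC5 one of -0.30, PSMD12 one of -0.11 and PSMA4 one of -0.034, and only PSMB3 and PSMC5 were apart from NC.

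Other genes of the ubiquitin-proteasome system were counted in the same way. Of 33 such genes (ubiquitin genes, shuttle factors, the VCP segregase and its adaptors, and proteins that bind the proteasome), 32 were tested and none was called by limma. In all, 19 had a negative log2FC and 13 a positive one, with a median of -0.10, and 4 were lower and 3 higher at an unadjusted p under 0.05, near the 11.5% and 10.2% of all genes. RPS27A, which encodes ubiquitin fused to a ribosomal protein, had 130.2 and 170.1 scaled RPKM in NC and 56.4 and 73.8 in si-circZFR, a log2FC of -1.19 (FDR = 0.0887 by limma). FAF1, an adaptor of VCP, had 16.9 and 18.5 in NC and 11.3 and 11.7 in si-circZFR, a log2FC of -0.58 (FDR = 0.127 by limma).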

How the data were processed

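Gene expression was measured by RNA-seq on the Ion Proton in 4 libraries, 2 of NC and 2 of si-circZFR. The authors removed adaptors and poor reads, aligned the rest to the human genome, and deposited 1 RPKM value for each gene. The article names hg38 and the submitters' processing notes GRCh37; the aligner, annotation and counting are not given in the sources used here. The methods name SVA and edgeR for the authors' own comparison, which was not used. Because RPKM is not a count, limma 3.58.1 (R 4.3.3) was run on log2(scaled RPKM + 1) with a trended prior variance, over genes that reached RPKM 1 in 2 or more libraries, after scaling by a trimmed mean of log ratios (trim: 30% of ratios, 5% of levels). Recovered reads are the smallest whole numbers that fit the RPKM values of all libraries within 0.001. They were found for 99.9% of the genes above 0 and may be low by a common factor. Gene lengths were recovered in the same step and share this limit. The recovered reads cover counting error only. In all, 181 of the genes tested had fewer than 10 over the 4 libraries together, where a gene without recovered reads counted as 0.

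Values were shown in every library for the 10 proteasome genes with the smallest p, the gene furthest apart in each group of subunits, the catalytic, immunoproteasome, activator and regulator genes, and, of the other ubiquitin-proteasome genes, the 3 with the smallest p. Some results under this rule are not reported here. Genes named besides these were chosen after their values were seen. The members, the lists and the tests were chosen with earlier results of these data known. The fit was tested on simulated data. Alternatives covered scaling, filters, gene types, the pseudocount, the replicate block, gene length, the prior variance, limma-voom on recovered reads and leaving out each library. Sequences came from RefSeq, GENCODE 44 and GRCh38 (the files hold no coordinates), and protein sequences were not used here. Tables were made with pandas 2.3.3, numpy 2.4.6 and scipy 1.17.1 in Python 3.11.15, and figures with matplotlib 3.10.9.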

Additional observations from a re-analysis of the deposited data

How the results depend on the processing

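The 8 genes called in all became 0 without a filter on low values (3676 genes at an unadjusted p under 0.05 by limma, and 368 called by limma-voom), 251 at RPKM of at least 1 in all 4 libraries, 206 above 1 CPM, 216 with mRNA genes only, 5 with a pseudocount of 0.1 or 0.5, 14 with the length correction, 1 without a trend in the prior variance, 368 by limma-voom and 0 to 692 when a library was left out (692 without NC replicate 1, and 0 in the other 3 cases, with 1040 to 2545 genes at an unadjusted p under 0.05). The proteasome genes called were 0 in the main result and 1 under the RPKM filter in all 4 libraries, the CPM filter, mRNA genes only and limma-voom, each time PSME3, and 0 to 2 when a library was left out. With the replicate number as a block, 17 genes and no proteasome gene were called. The numbers did not pair the libraries (correlation of their deviations 0.069).

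Without scaling, the median log2FC of all genes was 0.15, and the median of the 50 genes of -0.0050 lay 0.15 below it, against 0.18 below in the main result. The medians were then -0.0097 for the immunoproteasome, 0.086 for the ATPases, 0.13 for the base, 0.058 for the lid, -0.21 for the activators and -0.19 for assembly. The sign changed for 13 genes, none beyond its standard error. When a library was left out, the medians ran from -0.49 to 0.018 (alpha), -0.25 to 0.082 (ATPases), -0.16 to 0.087 (base), -0.67 to -0.094 (activators), -0.53 to -0.050 (assembly) and -0.33 to -0.048 (all 50), the ends being those without NC replicate 1 and without NC replicate 2. PSMD10 ran from -0.83 to 0.016 and so reversed without NC replicate 2. The core beta median stayed below 0 under every alternative, as did the medians of the activators, assembly factors, immunoproteasome and all 50 genes. The cause of these changes was not tested. With 2 libraries in each group, no gene rests on more than 1 difference between replicates in each.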
